A study of Mus musculus with 30 samples.

Results

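The 30 arrays of this study were divided by the presence of parotid tissue, read from 1 gene, Amy1, the salivary amylase. An array was called parotid-containing when its Amy1 probe set, the one of highest mean that names this gene alone, had a deposited log2 value above 10. By this rule 17 of the 30 arrays were parotid-containing and 13 were parotid-poor. The classes were thus selected on measured Amy1 values and are not groups of the study. Amy1, Dnase1 and Bpifb1 mark the parotid among the salivary glands, and the amount of parotid tissue itself was not measured.

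Whole salivary glands came from female mice of the NOD.H-2h4 strain, in which autoimmune inflammation of this gland develops. All mice had received 1 intraperitoneal antibody dose of 20 mg/kg at 4 weeks of age, either anti-CD40L or a human IgG1 control antibody. The groups were anti-CD40L at week 8, 16 and 24 of age and control antibody at the same ages, with 5 arrays each that the labels call biological replicates. Biotin-labelled cRNA from 2 ug of total RNA was hybridised to Affymetrix Mouse Genome 430 2.0 arrays, and the number of arrays limits the precision. No untreated group was analysed here, so every mouse in both classes carried an injected antibody.

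The mouse has paired parotid, submandibular and sublingual glands that lie close together in the neck. Parotid acini are serous and secrete amylase, deoxyribonuclease and proteins of the BPI fold family. The submandibular gland of rodents carries granular ducts that make kallikreins and growth factors, and its acini and those of the sublingual gland make other secretory proteins and mucins. In whole-tissue RNA, fewer cells of a type and less RNA per cell cannot be told apart.

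The genes that separated the classes most are shown first by their upstream sequence, because their levels ran with Amy1 over the arrays. RefSeq (GRCm38.p6) gave 10 start sites for Amy1, Smr3a, Chia1, Cst10, Dnase1, Bpifb1 and Bpifa2, and the 100 bases before each start were read. The letters TATAA, on either strand, were in 5 of these 10 windows and in 10.18% of all 32851 promoter windows of the same length. The motif was chosen after the sequences had been seen, and a match is a description only. The 5 windows that hold it are given 5′ to 3′ on the strand of the gene, with TATAA in capitals. Cst10, Dnase1 and the other start sites of Amy1 and Bpifb1 had no match, which says only that these letters are absent from those windows.
Amy1 (chr3:113574763-113574862, minus strand): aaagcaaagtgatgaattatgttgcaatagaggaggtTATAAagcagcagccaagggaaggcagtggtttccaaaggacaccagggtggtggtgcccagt
Smr3a (chr5:88002425-88002524, plus strand): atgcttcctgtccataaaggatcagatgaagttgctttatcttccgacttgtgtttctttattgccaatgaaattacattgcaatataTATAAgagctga
Chia1 (chr3:106113282-106113381, plus strand): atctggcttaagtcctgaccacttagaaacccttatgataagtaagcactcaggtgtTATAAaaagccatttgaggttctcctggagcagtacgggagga
Bpifb1 (chr2:154200280-154200379, plus strand): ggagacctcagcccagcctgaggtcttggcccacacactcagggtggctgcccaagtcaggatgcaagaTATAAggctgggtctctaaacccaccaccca
Bpifa2 (chr2:154008176-154008275, plus strand): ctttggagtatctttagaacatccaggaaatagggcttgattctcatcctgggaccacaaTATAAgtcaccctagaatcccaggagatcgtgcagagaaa

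Amy1, which set the classes, lay between 10.65 and 13.70 (median 13.43) in the parotid-containing arrays and between 6.58 and 9.51 (median 7.65) in the parotid-poor arrays, in log2 intensity. The array just inside the threshold, anti-CD40L week 24 replicate 3, had 10.65 for Amy1, 10.40 for Smr3a, 9.83 for Dnase1 and 8.02 for Bpifb1. The array just outside, control week 8 replicate 5, had 9.51 for Amy1, 9.09 for Smr3a, 8.60 for Dnase1 and 7.70 for Bpifb1. Both arrays thus lay between the medians of the classes in each of these genes, and the classes cut a range of levels that holds few arrays in its middle. The probe set shared by the 5 pancreatic amylase copies (Amy2a) was low throughout, between 3.37 and 5.95 in parotid-containing and between 3.27 and 3.901 in parotid-poor arrays. A probe set shared by Rnpc3 and Amy1 did not separate the classes, at 5.18 to 6.94 in parotid-containing and 5.68 to 6.88 in parotid-poor arrays.

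Both classes occurred in 5 of the 6 groups. At week 8 all 5 anti-CD40L arrays were parotid-containing, as were 3 of the 5 controls. At week 16 each treatment had 2 parotid-containing and 3 parotid-poor arrays. At week 24 anti-CD40L had 3 parotid-containing and 2 parotid-poor arrays, and controls had 2 parotid-containing and 3 parotid-poor arrays. Over all ages 10 of 15 anti-CD40L and 7 of 15 control arrays were parotid-containing. Fisher's exact test, two-sided, gave p = 0.324 for the 6 groups, p = 0.462 for treatment and p = 0.266 for week, each with an adjusted p of 0.462 over these 3 tests. The anti-CD40L week 8 group holds 1 class, so it gives no class difference of its own and enters the class comparison only through the estimate of the spread.

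**Figure D1:**
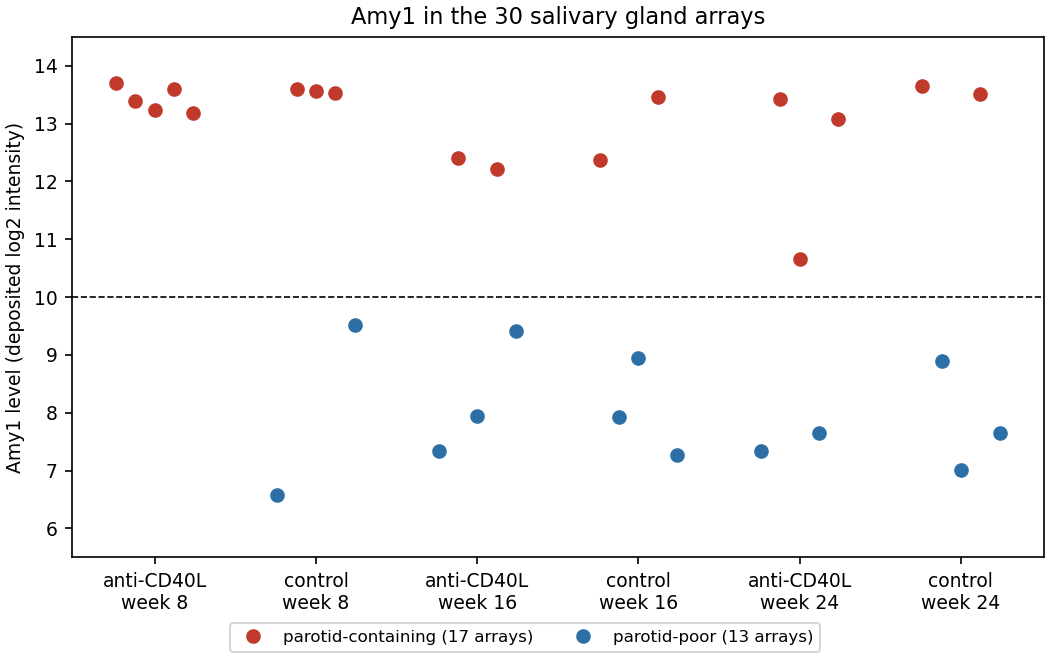
The level of Amy1 (deposited log2 intensity, y axis) in each of the 30 arrays, by treatment and age (x axis), with the threshold of 10 as a dashed line. The 17 parotid-containing arrays lie between 10.65 and 13.70 and the 13 parotid-poor arrays between 6.58 and 9.51, and only the anti-CD40L week 8 group holds a single class.

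The remaining marker genes followed Amy1. Dnase1, a secreted endonuclease, lay between 9.83 and 14.07 (median 13.60) in parotid-containing arrays and between 6.27 and 8.73 (median 7.35) in parotid-poor arrays. Bpifb1, a secreted BPI fold protein, lay between 8.02 and 13.78 (median 12.63) in parotid-containing arrays and between 5.84 and 8.12 (median 6.28) in parotid-poor arrays. The classes did not overlap in Dnase1, and in Bpifb1 1 parotid-poor array, control week 16 replicate 3 at 8.12, lay above the lowest parotid-containing array. A second Bpifb1 probe set averaged 11.2 in parotid-containing and 4.13 in parotid-poor arrays. Bpifa2, the parotid secretory protein, lay between 12.35 and 13.71 in parotid-containing and between 8.40 and 11.48 in parotid-poor arrays. Every parotid-containing array thus lay above every parotid-poor one in Bpifa2. With the groups as a factor the class difference was 5.41 ± 0.36 for Dnase1, 5.27 ± 0.50 for Bpifb1 and 3.57 ± 0.27 for Bpifa2 (log2 ± SE, 17 against 13 arrays), given as a description because these genes mark the tissue that the rule selects.

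Across all genes the comparison asks which other transcripts differ between the 2 Amy1 classes among glands of the same treatment and age. On this scale a difference of 1 is a 2-fold difference. Of 12997 genes tested with limma, 27 passed an adjusted p of 0.05 (0.208%), 25 higher in the parotid-containing arrays (0.192%) and 2 lower (0.0154%). An unadjusted p under 0.05 was reached by 2043 genes. Among the 27 the largest differences were near 6 on the log2 scale, and most were below 1. How many genes beside the 27 differed by smaller amounts cannot be read from these calls. All parotid-containing arrays lay above all parotid-poor arrays in 6 genes (0.0462%), which were Smr3a, Chia1, Cst10, Dnase1, Bpifa2 and 2610037D02Rik, and below them in 0. The last, a Riken transcript, separated the classes by very little, its lowest parotid-containing array being at 5.813 and its highest parotid-poor array at 5.805. Leaving out 1 array at a time gave 19 to 48 genes, with 44 without anti-CD40L week 8 replicate 1, 41 without anti-CD40L week 16 replicate 2 and 48 without control week 24 replicate 4. In all 30 of these fits Smr3a, Chia1, Cst10, Dnase1, Bpifb1 and Bpifa2 kept their call. The fits kept the Amy1 classes, and Dnase1, Bpifb1 and Bpifa2 mark the tissue that the rule selects, so their calls are a description.

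Smr3a had the largest class difference among the representative probe sets of the called genes, and the second Bpifb1 probe set gave a larger one, at 6.59. This gene, named for its androgen regulation in the submaxillary gland, stood in the list of submandibular and sublingual acinar products, yet it was high in the parotid-containing arrays. It lay between 10.40 and 13.97 (median 13.75) in the parotid-containing arrays and between 4.77 and 9.09 (median 6.83) in the parotid-poor arrays. The difference was 6.32 ± 0.44 (log2 ± SE, limma adjusted p = 2.16e-10), and it was higher in parotid-containing arrays in each of the 3 ages, by 6.83, 5.02 and 7.38 at weeks 8, 16 and 24. Of the 11 tested members of that list it was the only one called.

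Chia1 encodes the acidic mammalian chitinase, a secreted enzyme. It lay between 11.15 and 14.07 (median 13.86) in parotid-containing arrays and between 4.86 and 9.78 (median 7.15) in parotid-poor arrays, a difference of 6.25 ± 0.49 (limma adjusted p = 1.54e-09). Cst10, a member of the cystatin family of protease inhibitors, lay between 10.80 and 14.05 (median 13.79) in parotid-containing arrays and between 5.10 and 10.06 (median 7.38) in parotid-poor arrays. Its difference was 5.65 ± 0.46 (limma adjusted p = 2.76e-09). The arrays did not overlap between classes in either gene, and the parotid-poor arrays were themselves spread over more than 4 log2 units in both.

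**Figure D2:**
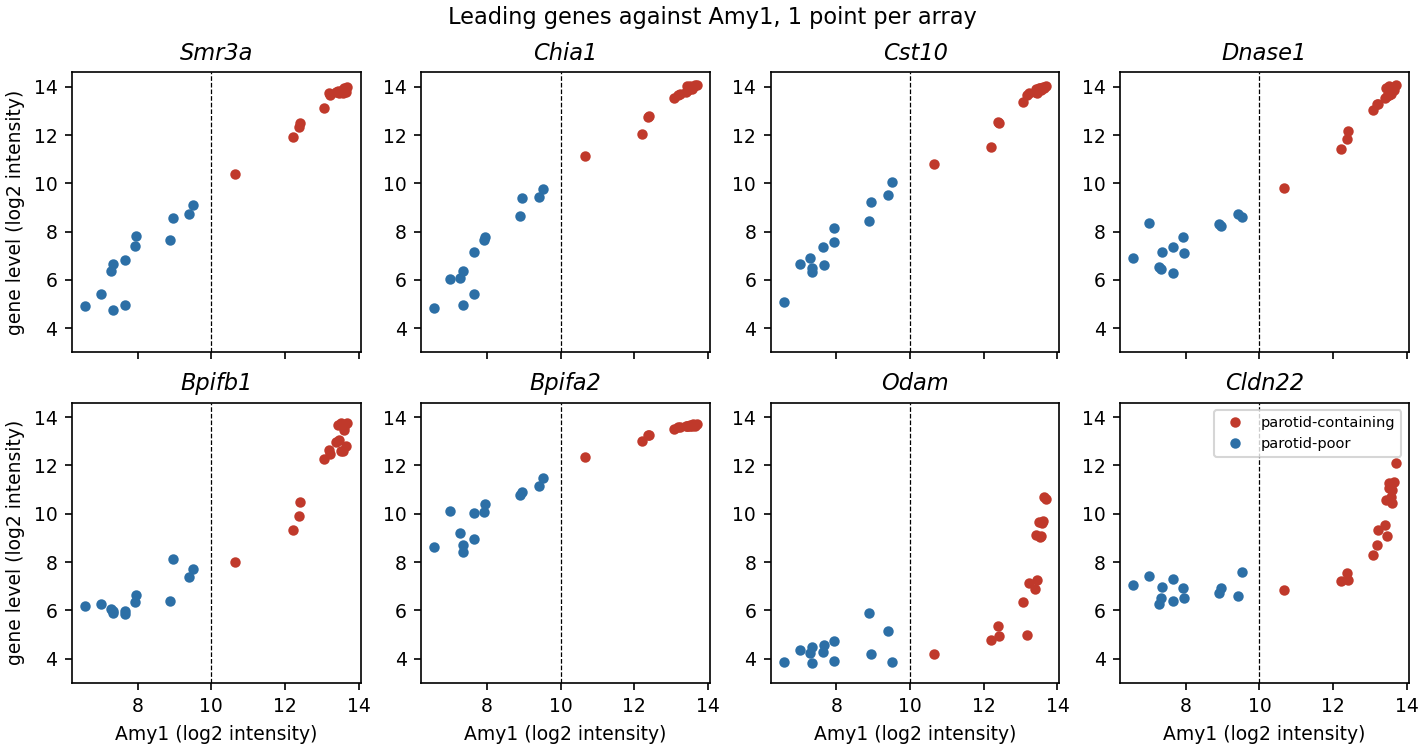
The level of 8 genes (log2 intensity, y axes) against Amy1 (log2 intensity, x axes), 1 point per array, with the Amy1 threshold of 10 as a dashed line. Smr3a, Chia1, Cst10, Dnase1, Bpifb1 and Bpifa2 follow Amy1 over most of the range, while Odam and Cldn22 are high only among the arrays with Amy1 above 13.

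The parotid-poor arrays themselves covered a range of levels in these genes, given here as a description because the genes were chosen for following Amy1. Control week 8 replicate 5, the parotid-poor array highest in Amy1 at 9.51, had 9.09 for Smr3a, 9.78 for Chia1 and 10.06 for Cst10. Control week 8 replicate 1, the lowest in Amy1 at 6.58, had 4.91 for Smr3a, 4.86 for Chia1 and 5.10 for Cst10. In Odam these 2 arrays were alike, at 3.84 and 3.88 in the same order.

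A second group of genes was high only in the arrays richest in Amy1. Odam, which encodes a secreted protein first known from ameloblasts, lay between 4.19 and 5.35 in the 4 parotid-containing arrays lowest in Amy1 (10.65 to 12.41). It lay between 4.99 and 10.70 (median 9.10) in the other 13 parotid-containing arrays, and between 3.83 and 5.90 in the parotid-poor arrays. Those 4 arrays were therefore within the parotid-poor range for Odam, although Smr3a, Chia1 and Dnase1 were already high in them. Cldn22, a claudin, showed the same order, with 6.86 to 7.57 in those 4 arrays, 8.31 to 12.10 in the other 13 and 6.28 to 7.57 in the parotid-poor arrays. Prpmp5, a proline-rich salivary protein, had 3.42 to 4.05 in the 4 arrays, 3.99 to 9.10 in the other 13 and 3.28 to 3.61 in the parotid-poor arrays. Csn3, the kappa-casein gene, named after its values were seen, had 4.84 to 5.44, 6.46 to 10.36 and 4.75 to 5.30 in the same order. The other Csn3 probe set gave a class difference of only 0.07, so this rise rests on 1 probe set. The division of the 17 arrays was made after the data were seen and was not tested. In the 13 arrays Bpifa2 lay between 13.50 and 13.71 and Chia1 between 13.53 and 14.07, near the highest value of all arrays, 14.457. In parotid-poor arrays Odam and Prpmp5 had medians of 4.28 and 3.40, low on the scale. Whether a ceiling in the leading genes and a floor in these genes give this order was not tested.

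Over the 2 classes Odam differed by 3.06 ± 0.62 (limma adjusted p = 0.0226) and Cldn22 by 2.39 ± 0.40 (adjusted p = 0.00352). Prpmp5, at 2.58 ± 0.57, had an adjusted p of 0.0515, and Csn3, at 1.84 ± 0.42, had 0.0538. In parotid-poor arrays Prpmp5 reached at most 3.61 and Csn3 at most 5.30, under the lowest array median of 5.487. These 2 genes thus entered the tests only through parotid-containing arrays, and their p-values are a description. Odam, with a parotid-poor median of 4.28, entered mainly through parotid-containing arrays as well. The large spread among parotid-containing arrays (SD 2.22 for Odam, against 0.594 in parotid-poor arrays) goes with these wider errors. The call for Odam was lost in 4 of the 30 fits without 1 array, the highest adjusted p being 0.0767 without control week 24 replicate 1. The call for Cldn22 was kept in all 30.

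The further rises were smaller. Cyp2c38, a cytochrome P450, averaged 8.13 ± 0.94 in parotid-containing and 6.73 ± 0.21 in parotid-poor arrays (SD, n = 17 and 13), a difference of 1.20 ± 0.24 (limma adjusted p = 0.0244) that was lost in 7 of the 30 fits without 1 array. Gm9112, a predicted gene, averaged 7.76 ± 0.90 and 6.27 ± 0.26 in the same order, a difference of 1.20 ± 0.22 (adjusted p = 0.0071). The 2 other probe sets of Gm9112 gave differences of 0.01 and 0.18. The remaining 15 genes that rose lie beyond the 10 largest and were named after their values were seen. Ggh, the lysosomal gamma-glutamyl hydrolase, was the largest at 1.17 ± 0.20 (adjusted p = 0.00451), with 11.07 to 13.50 in parotid-containing and 10.96 to 11.50 in parotid-poor arrays. Enpep, a glutamyl aminopeptidase of cell surfaces, rose by 0.83 ± 0.15 (adjusted p = 0.0071). Etnk1, an ethanolamine kinase, rose by 0.71 ± 0.13 (adjusted p = 0.0106), and its 4 other probe sets gave 0.12 to 0.32.

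For several of these genes another probe set did not show the rise at a like size. Pop1, a subunit of ribonuclease P and MRP, rose by 0.79 ± 0.11 (limma adjusted p = 0.000191), and its other probe set gave -0.08. In parotid-poor arrays Pop1 reached at most 5.42 and Styxl1, named below, at most 4.89, under the lowest array median of 5.487. Both thus entered the tests only through parotid-containing arrays, in which they were high, and their calls are a description. Sema6c, a semaphorin, rose by 0.75 ± 0.16 (adjusted p = 0.0306), while its other probe sets gave 0.01 and 0.12, and its call was lost in 13 of the 30 fits without 1 array. Wdr19, a protein of intraflagellar transport, rose by 0.37 ± 0.06 (adjusted p = 0.00451), with -0.09 in its other probe set. Actr5, a subunit of the INO80 chromatin remodeller, rose by 0.36 ± 0.08 (adjusted p = 0.044), with -0.08 in its other probe set and a call lost in 21 of the 30 fits. The others were Gm7694, 2610037D02Rik, Styxl1, Gm5142, Rasl11b, 3200001D21Rik, Kctd17 and 9330175E14Rik, with differences between 0.40 and 0.83. The other probe set of 2610037D02Rik gave 0.05 and that of 9330175E14Rik gave -0.00093. Of these genes, 3200001D21Rik lost its call in 17 of the 30 fits, Kctd17 in 6 and Gm7694 in 4.

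The falls were few and small. Tle5, a member of the Groucho family, averaged 10.02 ± 0.27 in parotid-containing and 10.31 ± 0.09 in parotid-poor arrays (SD, n = 17 and 13), a difference of -0.34 ± 0.07 (limma adjusted p = 0.044). Afg1l, a mitochondrial ATPase, averaged 7.79 ± 0.21 in parotid-containing and 8.16 ± 0.14 in parotid-poor arrays, a difference of -0.30 ± 0.07 (adjusted p = 0.0455). Both overlapped widely between classes, and the calls were lost in 18 and 22 of the 30 fits without 1 array, up to adjusted p values of 0.136 and 0.12.

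When every probe set was tested in place of 1 per gene, 40 of 25092 passed, 37 higher and 3 lower. Among them was a probe set of St3gal6, a sialyltransferase, at 8.23 in parotid-containing and 5.75 in parotid-poor arrays (difference 2.26 ± 0.44, limma adjusted p = 0.0194). A probe set of Cnpy2, an endoplasmic reticulum protein, stood at 10.98 in parotid-containing and 8.83 in parotid-poor arrays (1.83 ± 0.34, adjusted p = 0.011). Neither gene was called from its representative probe set, and the choice to name them followed their values. Tle5 and Afg1l lost their calls here, and the 3 lower probe sets were those of Ldhb, Kctd1 and no named gene. Actr5 and 3200001D21Rik were not among the 37 higher ones.

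Of all genes 0.208% were called, so 0 called members in a list of this size is near the background and is no result about the list. Of the 11 tested parotid products other than Amy1, the 3 that passed were Dnase1, Bpifb1 and Bpifa2, with a list median of 0.38, and this list marks the tissue that the rule selects. Of its 8 uncalled members 4 lay above 0 and 4 below, from Lpo, the salivary peroxidase, named after its value was seen (-0.23 ± 0.14), to Prpmp5 at 2.58 (limma adjusted p = 0.0515). Of the 12 granular duct genes, 0 were called and the median was -0.14. Only 1 of the 12 lay above 0, against 41.1% of all genes, and this was not tested as a list. Klk1b24, a kallikrein, averaged 11.97 in parotid-containing and 12.31 in parotid-poor arrays (-0.21 ± 0.11). Of the markers of these ducts, Klk1, the tissue kallikrein, stood at 14.1 in parotid-containing and 14.2 in parotid-poor arrays, and Egf at 12.82 and 13.02 in the same order. The highest value in the whole table was 14.457, and whether probe sets this bright were saturated, which would hide a difference, was not tested. The mean level of that list lay between 12.25 and 12.86 over the parotid-containing arrays and between 12.25 and 12.95 over the parotid-poor arrays, so these ducts of the submandibular gland were strongly represented in every array of both classes.

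The acinar and duct lists held no called member either, again near the share of all genes. For comparison, the median over all genes was -0.03, and 41.1% of genes lay above 0. Of 14 acinar identity and fluid secretion genes, 0 were called and the median was -0.08. Creb3l1, a transcription factor of secretory cells, gave -0.47 ± 0.32 and Bhlha15, the acinar transcription factor Mist1, -0.34 ± 0.10 (limma adjusted p = 0.176). Of 16 duct and ion transport genes, 0 were called and 3 lay above 0, with a median of -0.17. Cftr, the chloride channel, gave -0.31 ± 0.20, and Atp6v1b1, a proton pump subunit, -0.32 ± 0.13. A second Cftr probe set gave 0.02. Of 22 endoplasmic reticulum genes 0 were called (median -0.08) and of 17 clock genes 0 (median -0.15), the largest difference among the clock genes being that of Per1, at -0.60 ± 0.17 (adjusted p = 0.174).

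Most tested immune and fat genes lay above 0 when all groups were pooled, and none passed the test, where 0.208% of all genes did. All 17 tested interferon response genes lay above 0, with a median of 0.47, and Cxcl9, a T cell chemokine, was 1.35 ± 0.49 (limma adjusted p = 0.23). All 14 T cell genes lay above 0, with a median of 0.37, and Ms4a4b was 0.74 ± 0.36 (adjusted p = 0.322). Of 10 B cell genes 9 lay above 0 (median 0.14), as did 7 of 8 class II genes (median 0.24) and 13 of 16 macrophage and dendritic cell genes (median 0.24). Within each treatment the class II median was -0.04 in anti-CD40L and 0.42 in control arrays, the B cell median 0.01 and 0.18, the T cell median 0.16 and 0.48, and the interferon median 0.45 and 0.47, in the same order, and these differences between treatments were not tested as lists. Ms4a1, the B cell antigen CD20, gave 0.67 ± 0.36 over all groups and -0.29 at week 24. A second probe set of each gene gave smaller differences, at 0.28 for Cxcl9, -0.0014 for Ms4a4b and -0.03 for Ms4a1. These genes varied widely within both classes: Cxcl9 lay between 4.43 and 9.92 in parotid-containing arrays and between 4.32 and 9.03 in parotid-poor arrays. All 9 adipocyte genes lay above 0, with a median of 0.41. Adipoq, the adiponectin gene, was 2.01 ± 0.65 (adjusted p = 0.195), with 3.85 to 9.46 in parotid-containing and 3.49 to 9.78 in parotid-poor arrays. Genes of a list move together, so these counts are not independent, and none of these members was called.

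Lists for tissue that could have been taken with the glands held 0 called members, which at 0.208% of all genes says little for lists this short. Of 8 skeletal muscle genes 0 were called (median -0.04), of 8 nerve and Schwann cell genes 0 (median 0.11), and of 3 lacrimal and lipocalin genes 0 (median 0.08). Of 7 skin and oral epithelium genes 0 were called (median 0.06), with Lor, the loricrin gene of the cornified layer, at 0.48 ± 0.11 (limma adjusted p = 0.0723). The 2 other Lor probe sets gave -0.09 and 0.02. Of 17 fibroblast and matrix genes 0 were called (median 0.10), of 12 endothelial genes 0 (median 0.02), of 11 myoepithelial and smooth muscle genes 0 (median -0.07), and of 16 cell division genes 0 (median 0.02). The lists of plasma cell (13 tested, median 0.14), lymphoid stroma (6 tested, median 0.34) and secretory granule genes (12 tested, median -0.07) also held 0 called members.

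**Figure D3:**
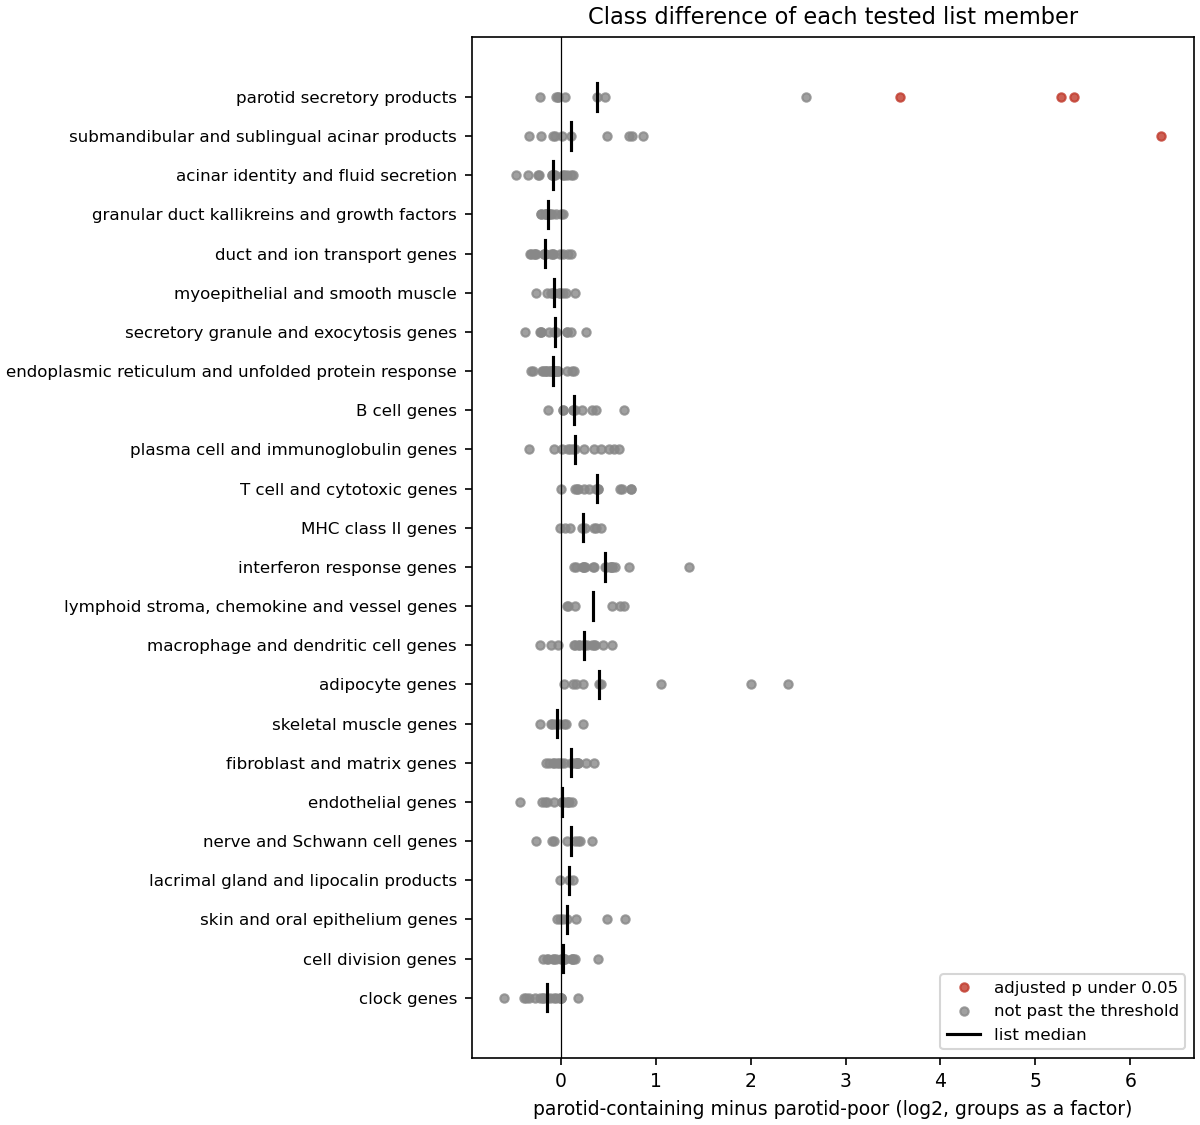
The class difference (parotid-containing minus parotid-poor, log2, x axis) of each tested member of 24 gene lists (y axis), with the list median as a bar and red for an adjusted p under 0.05. The 4 red members are Dnase1, Bpifb1 and Bpifa2 among parotid products and Smr3a among submandibular and sublingual acinar products, and all other members lie below 2.6.

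RNA quality differed between the classes. The array carries control probe sets at both ends of the Gapdh and beta-actin transcripts, and their signal at the 3′ end minus that at the 5′ end increases as RNA degrades. This 3′ minus 5′ difference averaged 0.392 (SD 0.186) in parotid-containing and 0.292 (SD 0.0809) in parotid-poor arrays. Within groups it was higher in parotid-containing arrays by 0.101 (two-sided permutation of class within groups, p = 0.0154, adjusted p = 0.0308 over 2 quality measures). The gap was widest in week 8 controls, with 0.683 in parotid-containing and 0.391 in parotid-poor arrays, and in week 24 controls, with 0.496 and 0.345 in the same order. In anti-CD40L arrays the means were 0.252 and 0.265 at week 16 and 0.218 and 0.174 at week 24, in the same order. The median correlation of an array with the others averaged 0.962 in parotid-containing and 0.969 in parotid-poor arrays (permutation p = 0.198).

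With the 3′ minus 5′ difference added to the model, an alternative chosen after the data were seen, 8 genes passed, all among the 27. Smr3a was then 6.09 ± 0.50, Chia1 6.03 ± 0.55, Cst10 5.36 ± 0.51, Dnase1 5.21 ± 0.40, Bpifb1 5.12 ± 0.57 and Bpifa2 3.53 ± 0.31. The other 2 were Pop1 (0.62 ± 0.10, limma adjusted p = 0.00451) and Wdr19 (0.36 ± 0.07, adjusted p = 0.0372). The calls for Odam, Cldn22, Cyp2c38, Gm9112, Ggh, Tle5 and Afg1l were among those lost. Moving the Amy1 threshold from 10 to 9, which puts 19 arrays in the parotid-containing class, left 7 called genes.

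The class difference was also estimated within each treatment, to ask whether it depends on the antibody. In anti-CD40L arrays 7 genes were called (0.0539%), all higher in parotid-containing arrays, and in controls 451 (3.47%), 107 higher (0.823%) and 344 lower (2.65%), with 6 genes in common. The test of the difference itself, the interaction of class with treatment, called 0 genes (0%), with 2029 at an unadjusted p under 0.05, and array weights gave 514. The count in controls was 46 when controls were fitted alone, 36 higher and 10 lower. With the 3′ minus 5′ difference in the model it was 8, 7 higher and 1 lower. Only the 5 parotid-containing arrays of weeks 16 and 24 inform the anti-CD40L estimate, against 7 in controls, and the median standard error was 0.136 in anti-CD40L and 0.111 in control arrays. The interaction count rose to 125 without control week 24 replicate 4, to 12 without anti-CD40L week 16 replicate 5, to 5 without control week 16 replicate 1, to 2 without anti-CD40L week 16 replicate 2 and to 1 without anti-CD40L week 24 replicate 2.

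The leading genes had large class differences under both antibodies. Smr3a differed by 6.02 ± 0.71 in anti-CD40L and 6.53 ± 0.58 in control arrays, and Chia1 by 6.13 ± 0.78 and 6.34 ± 0.64 in the same order. Bpifa2 differed by 3.78 ± 0.43 in anti-CD40L and 3.43 ± 0.35 in control arrays. Odam differed by 1.17 ± 0.88 in anti-CD40L and 4.32 ± 0.71 in control arrays (limma interaction adjusted p = 0.229). Cldn22 differed by 1.30 ± 0.58 in anti-CD40L and 3.11 ± 0.48 in control arrays (interaction adjusted p = 0.27). Of the 4 parotid-containing arrays lowest in Amy1, 3 were anti-CD40L arrays of weeks 16 and 24, and Odam in each of those 3 was at 4.96 or below. The part of that in the difference between treatments was not tested.

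The 7th gene called in anti-CD40L arrays was Dcpp3, a demilune cell and parotid protein. It differed by 1.92 ± 0.35 in anti-CD40L arrays (limma adjusted p = 0.02) and by -0.03 ± 0.29 in controls (interaction adjusted p = 0.166). Its near-identical copy Dcpp1 gave 2.11 ± 0.44 (adjusted p = 0.083) in anti-CD40L arrays and 0.03 ± 0.36 in controls. At weeks 8, 16 and 24, over both treatments, the difference was -0.24, 0.47 and 1.53 for Dcpp3 and -0.04, -0.04 and 2.22 for Dcpp1, so only week 24 held a large one in both. Over all groups Dcpp3 lay between 7.96 and 11.73 (median 11.39) in parotid-poor arrays and between 10.76 and 12.21 (median 11.66) in parotid-containing arrays. Dcpp1 lay between 8.77 and 13.73 (median 13.56) and between 13.39 and 13.73 (median 13.61) in the same order. The medians were thus close, and the lowest values were in parotid-poor arrays. At week 24 anti-CD40L held 2 parotid-poor arrays, and whether the difference rests on them was not tested. Probes may not tell these copies apart. Dcpp3 was named after its value was seen.

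Among the genes lower in the parotid-containing controls were Marveld1, a MARVEL domain membrane protein, at -1.23 ± 0.25 (limma adjusted p = 0.0139), and Acad11, an acyl-CoA dehydrogenase, at -1.08 ± 0.21 (adjusted p = 0.012). In anti-CD40L arrays these genes gave -0.12 ± 0.30 and -0.11 ± 0.26. Per1 gave -0.20 ± 0.26 in anti-CD40L and -0.86 ± 0.21 in control arrays (adjusted p = 0.03 in controls). The choice of Marveld1 and Acad11 followed their values. The 3′ minus 5′ difference moved with class in these controls. With it in the model 1 gene was called lower in controls, against 344 without it, so at most 1 of these genes kept its call. The part of the 3′ minus 5′ difference in each of these genes was not tested singly.

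**Figure D4:**
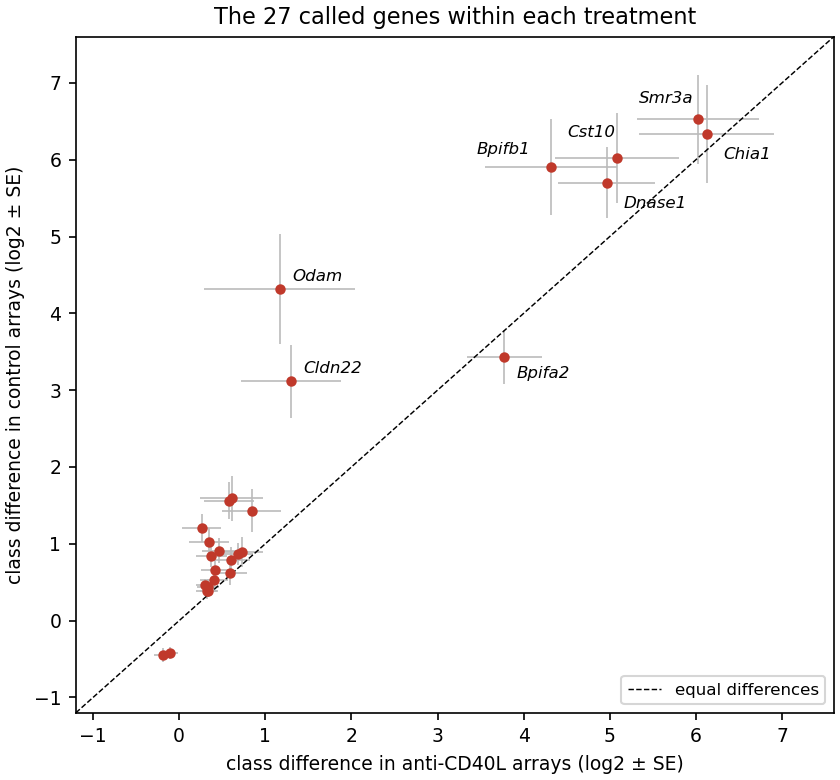
The class difference of the 27 called genes in anti-CD40L arrays (x axis) against that in control arrays (y axis), both parotid-containing minus parotid-poor in log2 with standard errors, and a dashed line where both are equal. Smr3a and Chia1 lie near the line at about 6, whereas Odam (1.17 in anti-CD40L, 4.32 in control arrays) and Cldn22 (1.30 and 3.11 in the same order) lie above it.

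Finally, the comparison of anti-CD40L with control was read with and without the class in the model. In this model the shift of a gene is set by its class difference and by the share of each class in each treatment. Genes with a large class difference thus moved by construction, Smr3a the most of all genes at weeks 8 and 24. At week 8 Smr3a differed between anti-CD40L and control by 0.19 ± 0.71 with class in the model and by 2.72 ± 1.97 without it. Cst10 gave 0.19 ± 0.73 with class and 2.45 ± 1.79 without it, and Dnase1 0.12 ± 0.57 and 2.28 ± 1.67. At week 24 Smr3a gave -1.35 ± 0.69 with class and -0.08 ± 1.97 without it. None of these values passed the test, and adding the class lowered the standard errors of these genes to less than 0.8. At week 16 both treatments had the same numbers of each class, so the estimates were identical.

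At week 8, with class in the model, 16 genes were called (0.123%), 3 higher (0.0231%) and 13 lower (0.1%) in anti-CD40L, against 9 without it (0.0692%), all 9 of which were kept. All 5 anti-CD40L arrays of this age were parotid-containing, so the class difference that adjusts them was estimated in the other groups. The immune genes named here and at week 24 were chosen with their values known. Jchain, the joining chain of polymeric antibodies, was -2.78 ± 0.31 with class (limma adjusted p = 1.53e-05) and -2.56 ± 0.34 without it. Igha, the IgA heavy chain, was -1.74 ± 0.28 with class (adjusted p = 0.00346) and -1.69 ± 0.27 without it. Among those added by the class were Hexim1, an inhibitor of transcription elongation (0.79 ± 0.16, adjusted p = 0.0259), and Pim3, a kinase (0.59 ± 0.12, adjusted p = 0.0424). Car7, a carbonic anhydrase, was also added (-0.65 ± 0.14, adjusted p = 0.0472), and all 3 were named after their values were seen. With the 3′ minus 5′ difference also in the model 4 genes passed, 3 of them among the 16. Quantile normalization gave 231, 107 higher and 124 lower. Leaving out 1 array at a time gave 4 genes (without anti-CD40L week 8 replicate 2) to 827 (without anti-CD40L week 8 replicate 3), so this count rested on single arrays.

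At week 16, 297 genes were called with class in the model (2.29%), 197 higher (1.52%) and 100 lower (0.769%), against 245 without it (1.89%), all of which were kept. Quantile normalization gave 174 higher and 146 lower. With the 3′ minus 5′ difference in the model there were 447, among them all 297. Leaving out 1 array at a time gave 83 (without control week 16 replicate 4) to 352 (without control week 24 replicate 1).

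At week 24, 2183 genes were called with class in the model (16.8%), 1470 higher (11.3%) and 713 lower (5.49%), against 1228 without it (9.45%), all of which were kept. Ms4a1 was -3.84 ± 0.57 with class (limma adjusted p = 0.000284) and -3.70 ± 0.58 without it. Cd79b, a chain of the B cell receptor, was -2.66 ± 0.35 with class and -2.59 ± 0.36 without it, and Mzb1, a chaperone of antibody-secreting cells, -2.72 ± 0.32 and -2.62 ± 0.34. Cxcl9 was -2.75 ± 0.76 with class (adjusted p = 0.0177) and -2.48 ± 0.84 without it (adjusted p = 0.0575). These immune genes moved by less with the class term than Smr3a did, which follows from their smaller class differences and is no result about the treatment.

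The week 24 count moved with the 3′ minus 5′ difference and with single arrays. At this age the 3′ minus 5′ difference lay between 0.165 and 0.249 in anti-CD40L and between 0.287 and 0.61 in control arrays, without overlap, so it and the treatment cannot be told apart. With the 3′ minus 5′ difference also in the model it was 39, 7 higher and 32 lower, 37 of them among the 2183. Ms4a1 (-3.47 ± 0.71, limma adjusted p = 0.0213), Cd79b (-2.71 ± 0.45, adjusted p = 0.00422) and Mzb1 (-2.53 ± 0.40, adjusted p = 0.00316) stayed past the threshold. Standard errors were larger in this model, and Cxcl9 (-2.62 ± 0.96, adjusted p = 0.249) and Cd3d, a chain of the T cell receptor complex (-2.19 ± 0.55, adjusted p = 0.0893), did not. Quantile normalization gave 1119 higher and 1065 lower. Leaving out 1 array at a time gave 509 (without control week 24 replicate 1) to 3330 (without control week 24 replicate 4).

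**Figure D5:**
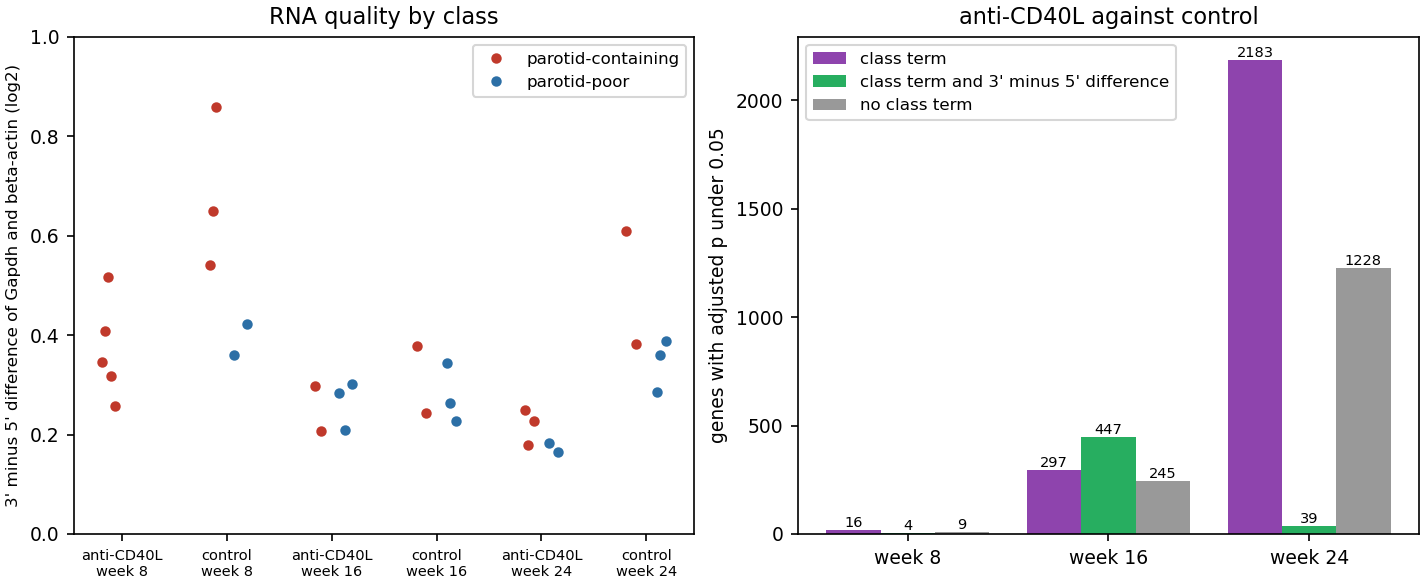
Left, the 3′ minus 5′ difference (log2, y axis) of each array by treatment and age, with the parotid-containing arrays left of the parotid-poor ones, from 0.165 to 0.859. Right, the number of genes with an adjusted p under 0.05 between anti-CD40L and control at each age, with class in the model (16, 297 and 2183), with class and the 3′ minus 5′ difference (4, 447 and 39) and without class (9, 245 and 1228).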

How the data were processed

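The authors deposited 1 table of log2 intensities, 45101 probe sets by 30 arrays, with values from 2.757 to 14.457 and array medians from 5.487 to 5.537, and it was used as deposited. The submitters' processing notes name limma without a version. Neither the probe summary nor the normalization between arrays is given in the sources used here. The highest correlation between 2 arrays was 0.9938, and no array was a copy of another.

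Gene names came from the platform table: 34945 probe sets named 1 gene, 932 several and 9160 none, beside 64 array controls. Each of 18193 genes was represented by its probe set of highest mean. Genes entered the tests if their probe set exceeded the median of the array on 5 or more arrays, and Amy1 was left out, which left 12997 genes. This filter counted arrays of both classes, so a gene low in all parotid-poor arrays could enter only through parotid-containing arrays. A linear model with 1 mean per treatment and age and a term for class was fitted over the 30 arrays (lmFit and eBayes of limma 3.58.1, under R 4.3.3), with Benjamini-Hochberg adjustment over all genes tested and a threshold of 0.05. A second model added the interaction of class with treatment. Shares of arrays were compared with Fisher's exact test, and quality measures by 100000 permutations of class within groups. The class fit was tested on simulated data with known differences. P-values measure the spread between these arrays.

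The members and the 24 gene lists (379 members, 290 tested) were chosen with earlier results of these data known. The rule for named genes takes the 3 markers and other amylases, the 10 largest called differences each way, 4 members of any list with at least 3 called members and 2 of every other list; other names are marked in the text, except for cell type markers, and not every gene of the rule is printed. Alternatives were quantile normalization, median centring, no filter or a stricter one, the median over probe sets, array weights, other Amy1 thresholds, classes from Dnase1, no group factor, single treatments or ages, the replicate number as a block, and leaving out each array. The 3′ minus 5′ covariate, Amy1 as a continuous term, all probe sets and leaving out the anti-CD40L week 8 group were added after the data were seen.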

Additional observations from a re-analysis of the deposited data

Results flagged for a closer look

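Cyp2c38 stood at 8.055 in control week 16 replicate 4, against 6.59 to 6.943 in the other 4 arrays of that group. Gm9112 stood at 8.222 in the same array, against 6.119 to 6.54 in the others. That array had the highest Amy1 of its group, at 13.454, and the next highest was control week 16 replicate 1 at 12.375. The median correlation of control week 24 replicate 1 with the other arrays was 0.9353, against 0.9635 to 0.9656 in its group. In each case 1 array lay far from the other 4 by a gap test for single extreme values. Chance gives such a gap in about 1 in 20 groups, and 78 groups of values were examined.

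Outside the comparison of genes, 9 probe sets that are not named here differed by class in limma, 8 higher and 1 lower in parotid-containing arrays. The largest difference among them was that of a probe set with a mean of 11.1 in parotid-containing and 7.96 in parotid-poor arrays (2.90 ± 0.39, limma adjusted p = 0.000158). Their genes were not looked up.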

How the results depend on the processing

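The class difference of 27 genes became 12 with the replicate block, 53 with array weights, 7 with Amy1 above 9, 46 in controls alone, 6 in anti-CD40L arrays alone, and 7, 5 and 14 in weeks 8, 16 and 24 alone. It became 8 with the 3′ minus 5′ covariate and 87 with Amy1 as a continuous term, which kept all 27. It stayed between 20 and 33 under quantile normalization, median centring, the filters, the median over probe sets, Amy1 above 11, classes from Dnase1 (the same arrays as Amy1 above 11), no group factor and without the anti-CD40L week 8 group. Without 1 array it ranged from 19 to 48. The subsets hold fewer arrays; for the other settings the cause was not tested. Of the 27 genes, 0 changed sign in any alternative.

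The treatment difference at week 8, 16 genes, became 231 with quantile normalization, 272 with array weights, 9 with Amy1 above 9, 9 with no class term and 4 with the covariate. Without 1 array it ranged from 4 to 827: 267, 493, 5, 8 and 41 without control week 8 replicates 1 to 5, 250, 4, 827, 5 and 6 without anti-CD40L week 8 replicates 1 to 5, and 144 and 543 without control week 24 replicates 1 and 4. At week 16 the 297 became 1442 with array weights and 447 with the covariate. Without 1 array it ranged from 83 to 352: 90, 108, 138 and 83 without control week 16 replicates 1 to 4, and 143 and 87 without anti-CD40L week 16 replicates 4 and 5. At week 24 the 2183 became 1228 with no class term and 39 with the covariate. Without 1 array it ranged from 509 to 3330: 509, 1155 and 3330 without control week 24 replicates 1, 3 and 4, and 1315, 1297 and 1256 without anti-CD40L week 24 replicates 3 to 5. The interaction, 0 genes, became 514 with array weights and 5 with Amy1 above 9, and ranged from 0 to 125 without 1 array. The cause was not tested.

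The Fisher p over the 6 groups ranged from 0.262 to 0.559 without 1 array, and the class difference in 3′ minus 5′ from 0.0797 to 0.117 (permutation p from 0.00593 to 0.0467). Same-numbered arrays did not deviate together: over 75 pairs the correlation of their deviations from the group means ran from -0.63 to 0.402, 17 were over 0.1, and 4 of 30 arrays correlated best with their own number. The replicate block left the treatment counts at 13, 227 and 2191 and the interaction at 0.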
